A study of Mus musculus with 5 samples.

Results

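Autophagy genes were followed in quiescent satellite cells, the resting stem cells of skeletal muscle, of wild-type and mdx mice. The group was chosen by symbol from a list of 41 genes of the core machinery, its cargo receptors and its transcription factors, and all 41 were found among the 22683 genes of the deposited table. RNA had been sequenced from sorted cells in 2 wild-type libraries and 3 mdx libraries. The mdx mouse carries a mutation in the dystrophin gene and is a model of Duchenne muscular dystrophy. Genotype is the one difference between the groups that the labels give, and strain, age, muscle, sorting gate and preparation date were not found in the sources used here. Whether libraries of a genotype stem from different animals is not stated, so p-values reflect only library-to-library spread, which may be technical.

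Autophagy carries cell contents to the lysosome inside a vesicle, the autophagosome. A kinase complex around Ulk1 starts its formation, a lipid kinase complex around Pik3c3 marks the site with phosphatidylinositol 3-phosphate (PI3P), and Atg2, Atg9 and Wipi proteins supply and shape the membrane. A conjugation system then attaches the small Atg8 proteins, the LC3 and Gabarap families, to that membrane, where they bind cargo receptors such as Sqstm1. In satellite cells autophagy is known to be needed for keeping the resting state in aged muscle and for activation after injury. Transcript levels do not measure the rate at which material is degraded, since several of these proteins are themselves consumed by the process.

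The libraries held 12473348 to 16825045 normalized counts, that is, reads per gene that the authors divided by a size factor for the library and rounded. Dmd, the gene mutated in mdx, had 11826 and 9266 against 4642, 4116 and 3700 in mdx. Several other properties of the libraries moved with genotype. Xist, transcribed from the inactive X chromosome of females, had values of 30235 and 30176 for wild type, with 0, 0 and 12 for mdx, and the Y-linked Ddx3y at 9 and 0 against 966, 946 and 827, so genotype and sex cannot be told apart. Small nucleolar, Cajal body and spliceosomal RNAs took 16.7% and 20.2% of the counts in wild type and 0.0771% to 0.0933% in mdx. Ribosomal protein genes took 6.18% and 7.54% in wild type and 1.253% to 1.70% in mdx. Of 10 markers each of endothelial cells, macrophages and fibro-adipogenic progenitors, 9, 9 and 10 rose in mdx, while the endothelial marker Tek fell, from 3223 and 2568 to 1429, 1790 and 2025 (limma adjusted p = 0.0392). The summed endothelial markers went from 171 to 223 CPM (the share of a library's summed normalized counts on the usual CPM scale) in wild type to 1159 to 1491 in mdx, macrophage markers from 27.3 to 35.4 to 745 to 1247, and progenitor markers from 839 to 1581 to 7935 to 10310. In both wild-type libraries Emcn, Cldn5, Itgam, C1qa, C1qb, C1qc, Mrc1 and Postn were at 0, and no marker was at 0 in mdx. Of 10 myofiber markers 3 rose, with a sum of 241 to 351 CPM in wild type and 2169 to 5783 in mdx. Of the 10 satellite cell markers 3 rose and 5 fell, and all were above 0 in every library, with sums of 4611 to 6097 CPM in wild type and 3324 to 4675 in mdx. The 5 that fell were Sdc4, Calcr, Cd34, Myf5 and Vcam1, and the 3 that rose were Itga7, Cdh15 and Fgfr4. Sdc4 went from 30886 and 27833 in wild type to 3261, 2633 and 2916 in mdx. Pax7, which defines satellite cells, was counted 9103 and 7644 times in wild type and 12767, 9751 and 14989 times in mdx, after normalization. It was not among the genes that passed (limma adjusted p = 0.0698). The part of sex, preparation and other cell types in the differences below was not tested, and in sorted bulk RNA fewer cells of a type and less RNA per cell cannot be told apart.

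The share of autophagy genes that differed between genotypes was close to the share of all genes. All 41 genes passed the filter on low values and 11 were called, or 26.8%, against 24.9% of all tested genes. A call is an adjusted p under 0.05 in limma, a linear model on log2(normalized count + 2) fitted over 18199 genes, with Benjamini-Hochberg adjustment. Of the 41, 3 rose in mdx, against 14.6% of all tested genes that rose, and 8 fell, against 10.3%. All 41 are protein-coding, and of the tested protein-coding genes 28.4% were called, with 18.2% higher and 10.2% lower. The median log2 difference, mdx minus wild type, was −0.17 over the autophagy genes and 0.13 over all tested genes. The median of the autophagy genes was −0.49 without wild type 1 and −0.50 after length and GC correction, and with libraries scaled to equal totals it was 0.023, beside 0.31 for all tested genes. Differences were above 0 for 17 of the 41 genes and below 0 for 24. For 24 of them the wild-type and mdx libraries were fully apart, 10 with all mdx libraries above and 14 with all below, and 52.0% of all tested genes showed no overlap (28.2% above and 23.8% below). In CPM the 41 genes together made up 2360 and 2500 in wild type and 1831, 2160 and 2161 in mdx. Leaving out a wild-type library leaves a single one, so wild-type spread does not enter that fit. Its calls are therefore not given, only log2 differences. With limma's trend and robust moderation turned off, Atg4b, Map1lc3b, Gabarapl1, Sqstm1, Nbr1 and Bnip3l did not pass (adjusted p from 0.0517 for Gabarapl1 to 0.143 for Nbr1).

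**Figure D1:**
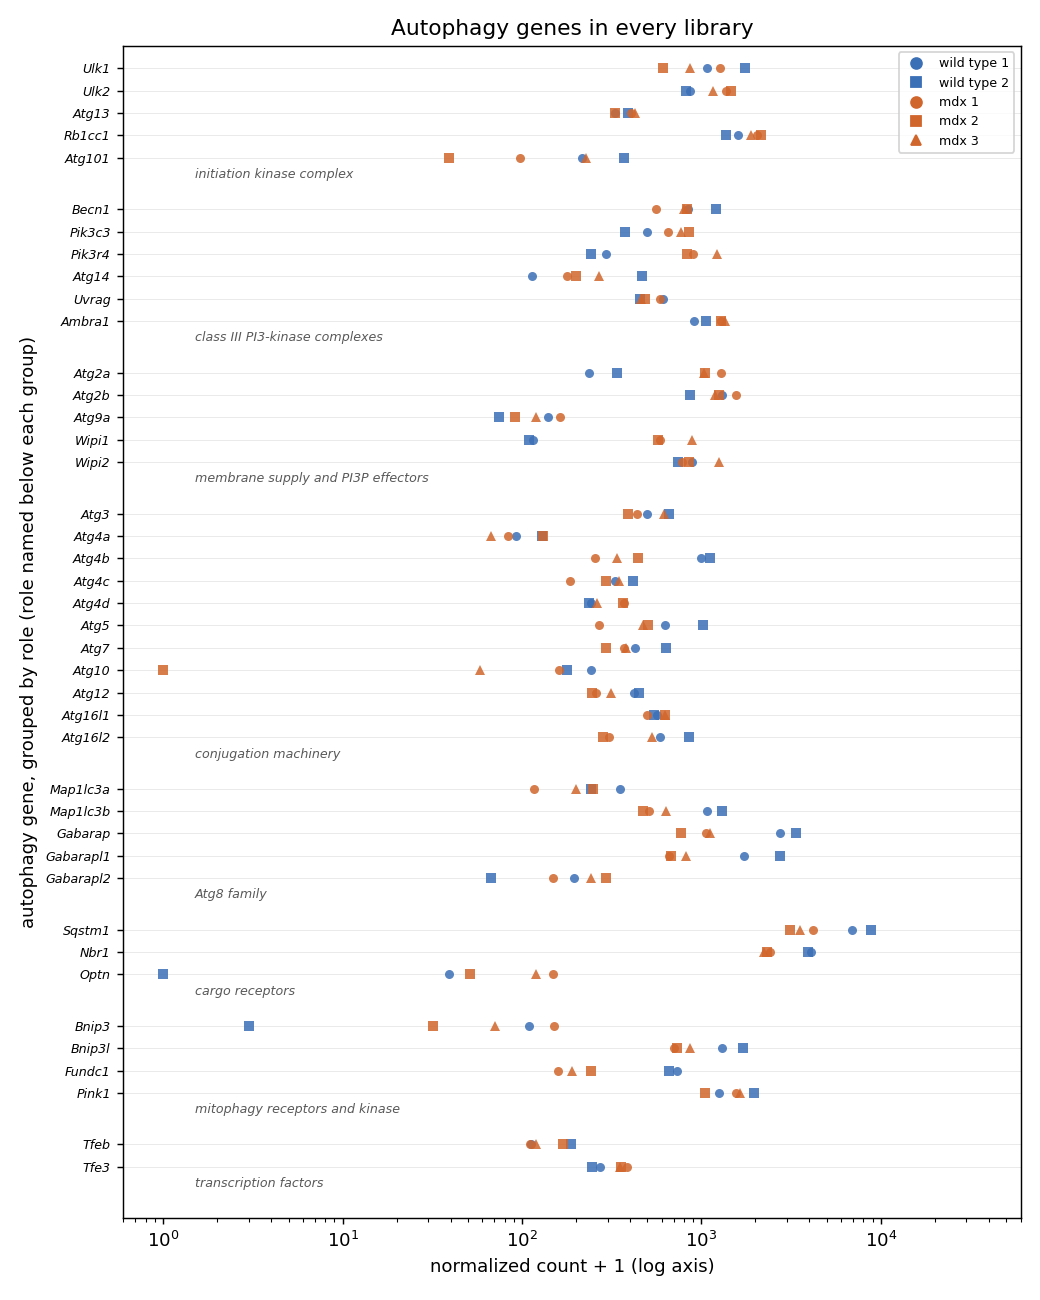
Normalized count plus 1 on a log axis for each of the 41 autophagy genes, grouped by role, with 1 point per library, blue for wild type and orange for mdx. The mdx points lie to the right of both wild-type points for Wipi1, Atg2a and Pik3r4, and to the left for Gabarap, Gabarapl1, Sqstm1 and Fundc1.

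**Figure D2:**
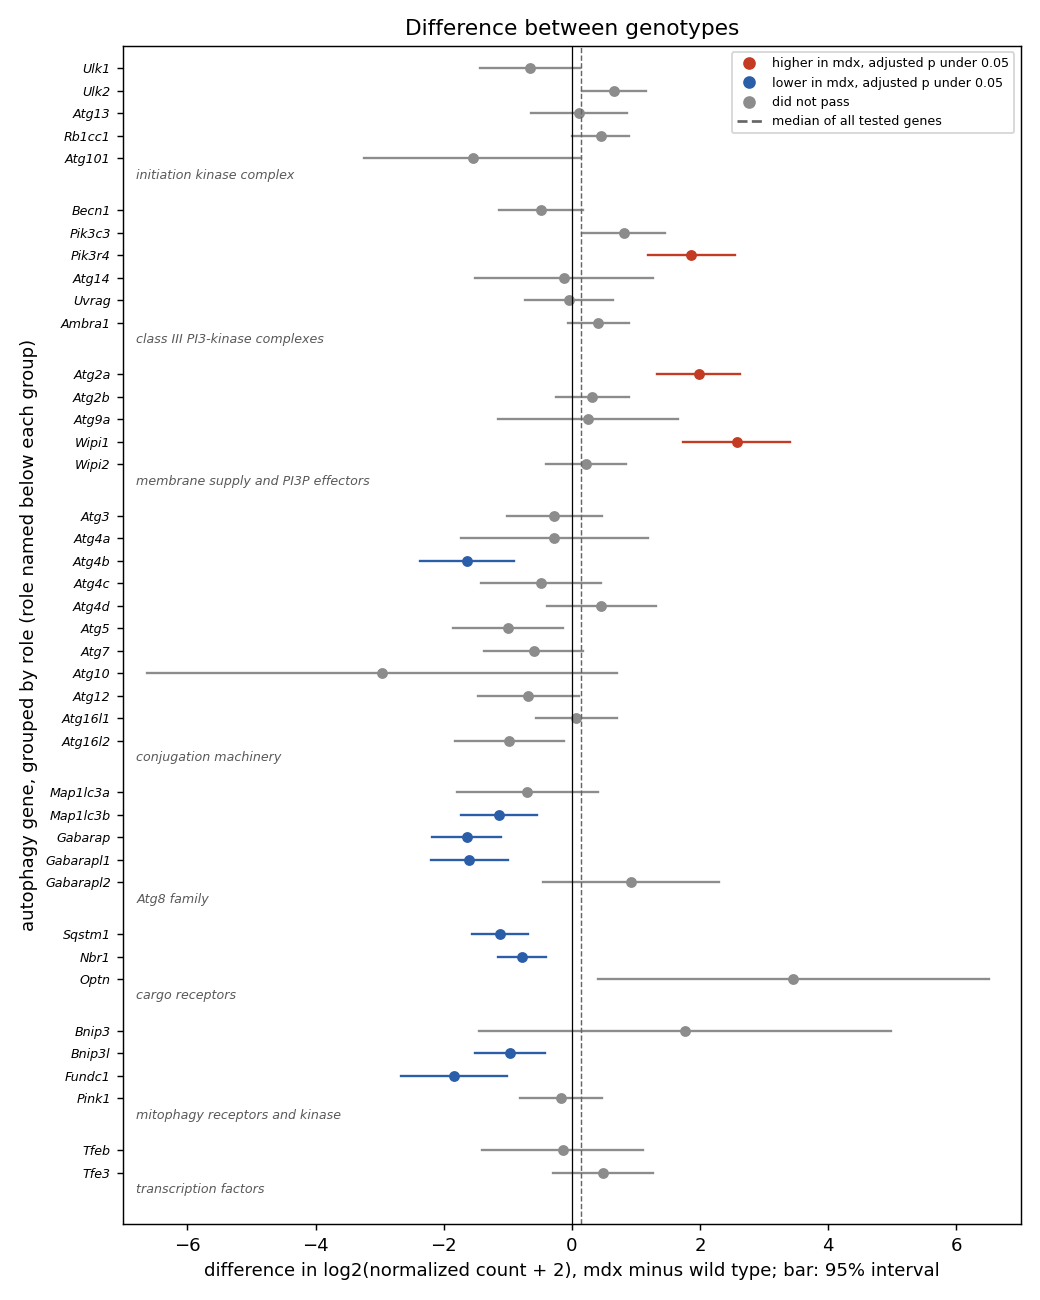
Difference in log2(normalized count + 2), mdx minus wild type, for each autophagy gene with its 95% interval. The 3 genes called higher sit between 1.86 and 2.57, the 8 called lower between −1.84 and −0.78, and the dashed line marks the median of all tested genes at 0.13.

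The genes that rose were Wipi1, Atg2a and Pik3r4. Wipi1 (chromosome 11, 109573331 to 109611432, mm10) binds PI3P on the growing membrane. Its normalized counts in wild type were 114 and 108, while those in mdx were 587, 572 and 890. The wild-type libraries were almost equal, and every mdx library lay far above them. The rise was 5.94-fold, from 111 ± 4.24 (SD, n = 2) to 683 ± 179 (SD, n = 3), a log2 difference of 2.57 (SE 0.37, 95% interval 1.73 to 3.41, limma adjusted p = 0.00142). Atg2a (chromosome 19, 6241668 to 6262335), a lipid transfer protein that feeds the membrane, had 236 and 336 in wild type and 1279, 1047 and 1030 in mdx. The genotypes were far apart relative to their spread, and the rise was 3.93-fold (log2 difference 1.98, SE 0.28, limma adjusted p = 0.0014). Pik3r4 encodes the regulatory kinase-like subunit that holds the Pik3c3 lipid kinase complexes together. Its counts of 292 and 241 in wild type stood against 900, 831 and 1223 in mdx, again without overlap. It rose 3.64-fold, from 267 ± 36.1 to 985 ± 209 (log2 difference 1.86, SE 0.30, limma adjusted p = 0.0024). Atg2a was no longer called once the dependence on transcript length and GC content was taken out of each library, where its log2 difference was 0.53 (limma adjusted p = 0.226), while Wipi1 kept 2.36 (0.00274) and Pik3r4 1.33 (0.0145).

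The paralogs of Wipi1 and Atg2a did not pass. Wipi2, which recruits the conjugation machinery, had 884 and 742 in wild type and 783, 856 and 1258 in mdx, and Atg2b had 1295 and 865 against 1551, 1246 and 1196. The genotypes overlapped for both. Per kb of the longest annotated transcript, Wipi1 was 0.20 and 0.23 of Wipi2 in the wild-type libraries, but 1.16, 1.04 and 1.10 in mdx. The same ratio of Atg2a to Atg2b was 0.22 and 0.46 in wild type and 0.977, 0.995 and 1.02 in mdx. In mdx the transcripts of each pair were near equal per length, while in wild type Wipi2 and Atg2b predominated. The difference between relatives was not tested. Atg9a, the membrane protein of the seed vesicles, was among the lowest of all the genes in both genotypes, at 139 and 73 against 161, 90 and 119. It shares 1832 exonic bases, 31.8% of its exons, with Gm29253 on the same strand, so its counts are uncertain.

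The RefSeq promoter sequence (GRCm38.p6) of each gene was searched in the 250 bases before each listed start site, and 34 of the 41 genes had an entry. The motifs were CACGTG, the core that Tfeb and Tfe3 bind, TGTTTAC (reverse complement GTAAACA), bound by FoxO factors, and GGGCGG (reverse complement CCGCCC), the GC box. Both strands were read and no motif lies within another. CACGTG occurred in 4 of the 34 genes, or 11.8%, against 9.49% of tested genes with an entry, and those were Atg3, Atg5, Atg7 and Bnip3, none of them called. The window of Atg7, from 114670846 to 114671095 on chromosome 6, lies inside the gene, which starts at 114643097. TGTTTAC was in 0 of the 34 genes and 2.69% of tested genes, and the GC box in 23, or 67.6%, against 61% of tested genes. Among called genes the GC box was in 1 of 3 that rose and in 4 of the 7 with an entry that fell. Shown here are stretches from a pair of genes that rose and a pair that fell, chosen for their calls and, beyond that, for having sequence free of annotated untranslated regions. They are not free of annotated exons. In the 250-base windows, exons of any gene covered 250 bases for Gabarapl1 and 148 for Sqstm1. Capitals mark matches to any of the 3 motifs, and all are printed 5′ to 3′ along the gene's strand.
Wipi1, chr11:109611433-109611639, minus strand: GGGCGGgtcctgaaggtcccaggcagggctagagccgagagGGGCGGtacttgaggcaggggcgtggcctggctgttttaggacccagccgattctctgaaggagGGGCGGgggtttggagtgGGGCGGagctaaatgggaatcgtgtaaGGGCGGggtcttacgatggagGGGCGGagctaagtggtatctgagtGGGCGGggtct
Atg2a, chr19:6241418-6241667, plus strand: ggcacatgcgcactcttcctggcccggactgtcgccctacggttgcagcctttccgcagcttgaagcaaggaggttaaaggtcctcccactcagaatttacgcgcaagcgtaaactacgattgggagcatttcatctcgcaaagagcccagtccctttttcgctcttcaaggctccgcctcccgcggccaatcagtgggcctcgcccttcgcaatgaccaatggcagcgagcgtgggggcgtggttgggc
Sqstm1, chr11:50210910-50211070, minus strand: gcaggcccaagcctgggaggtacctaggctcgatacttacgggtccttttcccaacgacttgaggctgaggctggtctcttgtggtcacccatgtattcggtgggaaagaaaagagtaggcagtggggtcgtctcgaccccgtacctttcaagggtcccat
Gabarapl1, chr6:129532942-129533159, plus strand: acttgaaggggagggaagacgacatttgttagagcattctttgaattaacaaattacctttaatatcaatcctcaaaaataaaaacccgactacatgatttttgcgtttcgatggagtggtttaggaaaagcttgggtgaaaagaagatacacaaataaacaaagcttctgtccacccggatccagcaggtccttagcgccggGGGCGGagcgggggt
The printed stretch of Wipi1 holds 7 GC boxes, that of Gabarapl1 holds 1, and those of Atg2a and Sqstm1 hold 0. In the whole 250-base window, which for Wipi1, Gabarapl1 and Sqstm1 runs on into sequence not printed, there were 8 in Wipi1, 2 in Gabarapl1, 3 in Sqstm1 and 0 in Atg2a. A match is a run of letters and not a measured binding site.

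Genes of the Atg8 family, the proteins that coat the autophagosome and hold its cargo, were lower in 3 of 5 cases. The share in this small group, 60%, was not tested against the 10.3% of all tested genes that fell. Gabarap (chromosome 11, 69991143 to 69994951, mm10) reached 2746 and 3367 in wild type as normalized counts, and 1065, 768 and 1118 in mdx. All mdx libraries were below both wild-type libraries. It fell 3.13-fold, from 3057 ± 439 to 984 ± 189 (log2 difference −1.65, SE 0.24, 95% interval −2.18 to −1.11, limma adjusted p = 0.00141). Gabarapl1, a close homolog that is also a known FoxO target in muscle, had 1723 and 2753 in wild type and 662, 674 and 823 in mdx. The wild-type libraries differed more from each other than the mdx libraries did, yet neither came near the mdx range. The fall was 3.04-fold (log2 difference −1.60, SE 0.26, limma adjusted p = 0.0028). Gabarapl1 shares 28.3% of its exons with 1700101I11Rik on the opposite strand, which has no row in the deposited table. Map1lc3b, the LC3 form used most often to count autophagosomes, went from 1072 and 1295 to 512, 470 and 637. It fell 2.2-fold (log2 difference −1.14, SE 0.26, limma adjusted p = 0.0142), but without mdx 1 or mdx 2 it did not pass (limma adjusted p = 0.0567 and 0.0563).

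The other Atg8 genes were less abundant and did not pass. Map1lc3a had 349 and 241 in wild type and 115, 248 and 199 in mdx, and Gabarapl2 had 195 and 66 against 147, 291 and 242. In both the genotypes overlapped. The difference for Gabarapl2 was above 0 (log2 difference 0.93, SE 0.61, 95% interval −0.45 to 2.30), where those of the rest of the family were below 0. Summed per kb, the 5 genes came to 3668 and 4574 in wild type and 1467, 1449 and 1757 in mdx. Gabarap made up 55.4% and 54.5% of that sum in wild type and 53.7%, 39.2% and 47.1% in mdx, and remained the largest part in each library. Gabarapl2 made up 3.17% and 0.86% in wild type and 5.98%, 12.0% and 8.21% in mdx. Gabarapl2 shares 20.8% of its longest transcript, at 99.4% identity, with the processed pseudogene Gm3724, which was at 0 to 12 in these libraries, so its reads may have been divided.

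Of the cargo receptors, Sqstm1 and Nbr1 fell. Sqstm1 (chromosome 11, 50199366 to 50210827) encodes p62, which binds ubiquitin on cargo and Atg8 proteins on the membrane, and it had the highest level per kb of all 41 genes in both genotypes. Its counts were 6943 and 8826 in wild type and 4177, 3106 and 3561 in mdx, with no overlap. It fell 2.18-fold, from 7885 ± 1331 to 3615 ± 538 (log2 difference −1.12, SE 0.19, 95% interval −1.56 to −0.69, limma adjusted p = 0.00343). Nbr1, a receptor of similar domain plan, was tightly grouped at 4060 and 3915 in wild type and 2395, 2321 and 2244 in mdx. It fell 1.72-fold (log2 difference −0.78, SE 0.17, limma adjusted p = 0.0101). With libraries scaled to equal totals Nbr1 was not called (log2 difference −0.59, limma adjusted p = 0.0882). Per kb, Sqstm1 exceeded Nbr1 by 3.06 and 4.04 times in wild type and 3.13, 2.40 and 2.84 times in mdx, ranges that overlap. Sqstm1 shares 580 exonic bases, 17.3% of its exons, with Mrnip on the opposite strand. Mrnip had 23 and 9 against 76, 76 and 83.

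Optn, encoding optineurin, a receptor for damaged mitochondria and bacteria, was scarce and uneven. The wild-type libraries held 38 and 0 and the mdx libraries 148, 50 and 119. The genotypes did not overlap, but the 2 wild-type libraries disagreed and the gene did not pass (log2 difference 3.46, SE 1.35, limma adjusted p = 0.0923). Without wild type 1, the one with 38, its log2 difference was 5.62, resting on the single wild-type library at 0.

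Genes that direct mitochondria to autophagosomes were divided. Fundc1, an outer-membrane receptor that responds to low oxygen, lies on the X chromosome (17556564 to 17572325). It had 729 and 659 in wild type and 157, 240 and 190 in mdx, with every mdx library far below both wild-type libraries. The fall was 3.57-fold (log2 difference −1.84, SE 0.37, 95% interval −2.66 to −1.01, limma adjusted p = 0.00709). Bnip3l, encoding the receptor Nix, had 1297 and 1709 in wild type and 699, 726 and 866 in mdx, with no overlap. It fell 1.96-fold (log2 difference −0.97, SE 0.24, limma adjusted p = 0.0192). That call ended without mdx 1, 2 or 3 (limma adjusted p = 0.0695, 0.0694 and 0.0511), and after length and GC correction (0.0562).

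The remaining mitophagy genes did not pass. Pink1, the kinase that marks damaged mitochondria, had 1248 and 1961 in wild type and 1564, 1052 and 1649 in mdx. It overlapped between genotypes and had the third highest level per kb in mdx (log2 difference −0.17, SE 0.28, 95% interval −0.81 to 0.48). Bnip3, the paralog of Bnip3l, had 108 and 2 in wild type and 150, 31 and 70 in mdx. Its wild-type libraries enclosed the values of mdx 2 and mdx 3. The log2 difference of Bnip3 was 4.15 without wild type 1 and −0.63 without wild type 2. Parts of the Bnip3 transcript recur in other genes, so its counts are uncertain. The noncoding AC160336.1 matches 48.9% of its length at 98.3% identity, and 3 pseudogenes match 31.8% to 32.3%. Bnip3 also shares 22.3% of its exons with Gm45507 on the opposite strand.

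**Figure D3:**
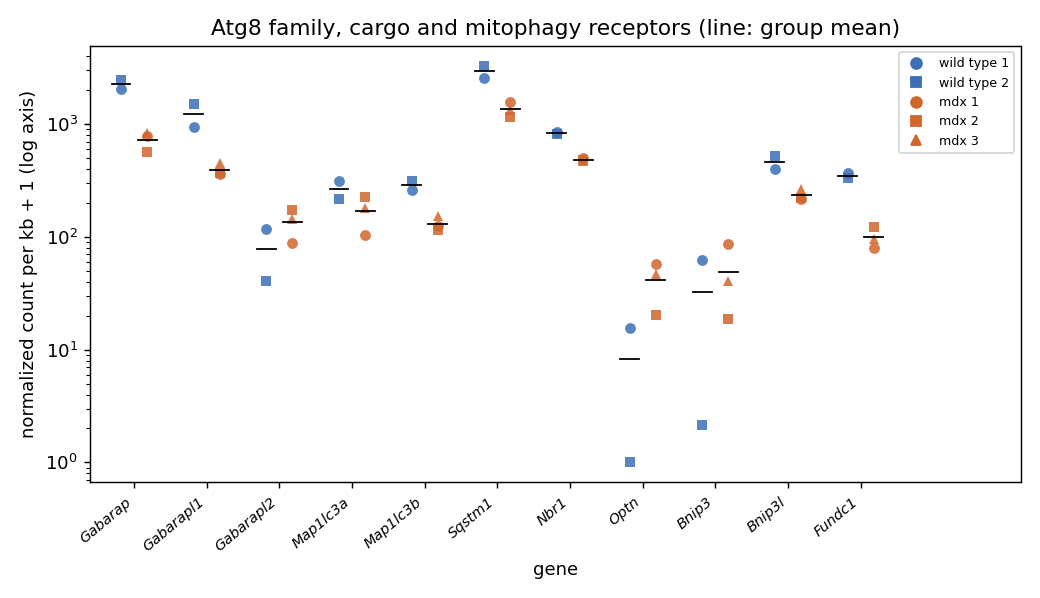
Normalized count per kb of the longest annotated transcript, plus 1, on a log axis, for Atg8 family, cargo receptor and mitophagy receptor genes, with 1 point per library and a line at each group mean. Gabarap, Gabarapl1, Sqstm1, Nbr1, Map1lc3b, Bnip3l and Fundc1 have all mdx points below the wild-type points, while Gabarapl2, Map1lc3a and Bnip3 overlap.

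The autophagy genes were also ordered by transcript level per length. The wild-type values enter both this order and the difference between genotypes, so they are tied in part by construction. Other genes at a like level were not compared. Ordered by mean normalized count per kb in wild type, the first 7 were Sqstm1 (2950), Gabarap (2262), Gabarapl1 (1230), Nbr1 (833), Pink1 (676), Bnip3l (461) and Fundc1 (350), and Pink1 alone of these was not called. Sqstm1 was above Gabarap in each wild-type library, at 2597 and 3302 per kb against 2033 and 2492. Nbr1 and Pink1 changed order between these libraries, at 847.8 and 817.5 against 525.5 and 825.7. In mdx the order began with Sqstm1 (1352), Gabarap (728), Pink1 (599), Nbr1 (484) and Gabarapl1 (395). Wipi1 moved from place 38 of 41 to place 12, Atg2a from 35 to 17 and Pik3r4 from 33 to 13, while Fundc1 moved from 7 to 26 and Atg4b from 13 to 30. Libraries of the same genotype differed by a median of 1.33 times (highest over lowest, after adding 2) in wild type and 1.49 times in mdx. This measure spans 2 libraries in wild type and 3 in mdx and grows with their number, so it does not compare the genotypes. Only Atg14, Gabarapl2, Optn and Bnip3 differed over 2-fold in wild type, and Ulk1, Atg101, Atg10, Map1lc3a, Optn and Bnip3 in mdx.

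Of 11 genes of the conjugation machinery, 1 fell and 10 did not pass. The share that fell, 9.09%, was near the 10.3% of all tested genes. Atg4b, the main protease that trims Atg8 proteins before conjugation and frees them afterwards, had 994 and 1118 in wild type and 253, 444 and 339 in mdx. All mdx libraries were below both wild-type libraries. It fell 3.12-fold, from 1056 ± 87.7 to 345 ± 95.7 (log2 difference −1.64, SE 0.33, 95% interval −2.38 to −0.91, limma adjusted p = 0.0069). The other proteases gave no call. Atg4a had 91 and 129 against 83, 130 and 66, Atg4c 329 and 417 against 183, 293 and 346, and Atg4d 242 and 234 against 371, 364 and 262. Atg4a cannot be told from its copy Atg4a-ps, which matches 96% of its transcript at 99.3% identity.

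The ubiquitin-like Atg12 and the enzymes and scaffold that join it to Atg5 had lower mdx values in several cases without passing. Atg5, the conjugation partner, had 622 and 1023 in wild type and 267, 500 and 474 in mdx (log2 difference −0.997, SE 0.38, limma adjusted p = 0.0872). Atg12 had 422 and 449 against 259, 246 and 312 (log2 difference −0.68, limma adjusted p = 0.184), and Atg7, the activating enzyme, 427 and 631 against 368, 291 and 377 (log2 difference −0.59, limma adjusted p = 0.235). In these 3 genes all mdx libraries were below both wild-type libraries. The same held for Atg16l2, a variant scaffold, with 583 and 847 against 305, 282 and 527 (limma adjusted p = 0.0892), and for Atg10, the transfer enzyme of Atg12, with 241 and 178 against 160, 0 and 57 (limma adjusted p = 0.213). Without wild type 1, a fit with a single wild-type library, the log2 difference of Atg5 was −1.36. Atg16l1, the principal scaffold, was close to even, at 563 and 541 against 496, 623 and 626 (log2 difference 0.07, 95% interval −0.56 to 0.70). Atg3, which transfers Atg8 proteins to lipid, overlapped as well, at 496 and 662 against 437, 391 and 617.

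None of the 5 genes of the initiation kinase complex was called by limma, where 24.9% of all tested genes were called. An unadjusted p under 0.05 was found for 2 of them, and for 6933 of all 18199 tested genes. Ulk2 had 867 and 814 in wild type and 1374, 1467 and 1166 in mdx, and Rb1cc1, the large scaffold of the complex, had 1600 and 1370 against 2036, 2145 and 1880. Both showed all mdx libraries above wild type, with log2 differences of 0.66 (SE 0.22, limma adjusted p = 0.0576) and 0.45 (SE 0.19, limma adjusted p = 0.127). Ulk2 was called after quantile normalization (limma adjusted p = 0.0456) and with a filter at 50 (0.0465). Ulk1, the kinase that starts autophagosome formation, had 1076 and 1752 against 1271, 606 and 861, which overlap (log2 difference −0.65, SE 0.35, limma adjusted p = 0.201). It was called as lower without wild type 1 (limma adjusted p = 0.0106) and once corrected for length and GC (log2 difference −1.75, limma adjusted p = 0.00816). Per kb, Ulk1 exceeded Ulk2 by 1.37 and 2.37 times in wild type, and the ratio was 1.02, 0.46 and 0.81 in mdx. Atg13, the adaptor, was level at 328 and 388 against 406, 329 and 427. Its partner Atg101 was uneven, at 215 and 369 against 97, 38 and 227 (log2 difference −1.55, limma adjusted p = 0.164).

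Among the 6 genes of the class III PI3-kinase complexes, Pik3r4 was the only one called, or 16.7%, against 24.9% of all tested genes. Pik3c3, the catalytic lipid kinase, had 496 and 372 in wild type and 649, 850 and 772 in mdx. All mdx libraries were higher, and its log2 difference of 0.81 (SE 0.29) did not pass (limma adjusted p = 0.0699). Without wild type 1 the log2 difference of Pik3c3 was 1.01. Ambra1, a scaffold that links the complex to the Ulk1 kinase, also had all mdx libraries above, at 912 and 1055 against 1290, 1287 and 1344 (limma adjusted p = 0.183). Becn1, the core subunit beclin, pointed the other way, at 836 and 1205 against 557, 829 and 798, with all mdx libraries below (log2 difference −0.48, SE 0.29, limma adjusted p = 0.252). Becn1 shares 43.9% of its annotated exon bases with Cntd1 on the opposite strand, and Cntd1 was at 0 to 41 in these libraries. Atg14 and Uvrag, alternative subunits that send the complex to autophagosomes or endosomes, overlapped between genotypes. Atg14 had 112 and 467 against 176, 199 and 266, and Uvrag 608 and 452 against 587, 484 and 462.

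The transcription factors Tfeb and Tfe3, which drive lysosomal and autophagy genes, did not pass. Tfeb had 111 and 187 in wild type and 110, 168 and 119 in mdx, with overlap (log2 difference −0.15, 95% interval −1.40 to 1.10). Tfe3, an X-linked gene, had 272 and 245 against 386, 354 and 351, with all mdx libraries above (log2 difference 0.49, SE 0.35, limma adjusted p = 0.325). The interval for Tfeb includes a doubling and a halving, so differences of that size are not excluded by these libraries.

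Differences were related to transcript length over the table, and less evenly over the autophagy genes. Among 13783 tested protein-coding genes, the median log2 difference was −0.32, 0.10, 0.22 and 0.60 in length quartiles 1 to 4, from the shortest to the longest transcripts. The autophagy genes of those quartiles, 10, 9, 10 and 12 in number, had medians of −1.12, −0.17, −0.54 and 0.43. Quartile 3 lay below quartile 2 among them, and 3 of its genes were called lower. Across genes, Spearman's rho between length and log2 difference was 0.38 over the 41 genes and 0.22 over all protein-coding genes, as a description of genes that share the same libraries. With the length and GC trends removed, 2 of the 41 were higher and 9 lower, against 9.73% and 11.0% of all tested genes. Of those 11, 9 had been called before, and Ulk1 and Atg16l2 were added while Atg2a and Bnip3l were lost. The number of genes with a difference above 0 went from 17 to 10.

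**Figure D4:**
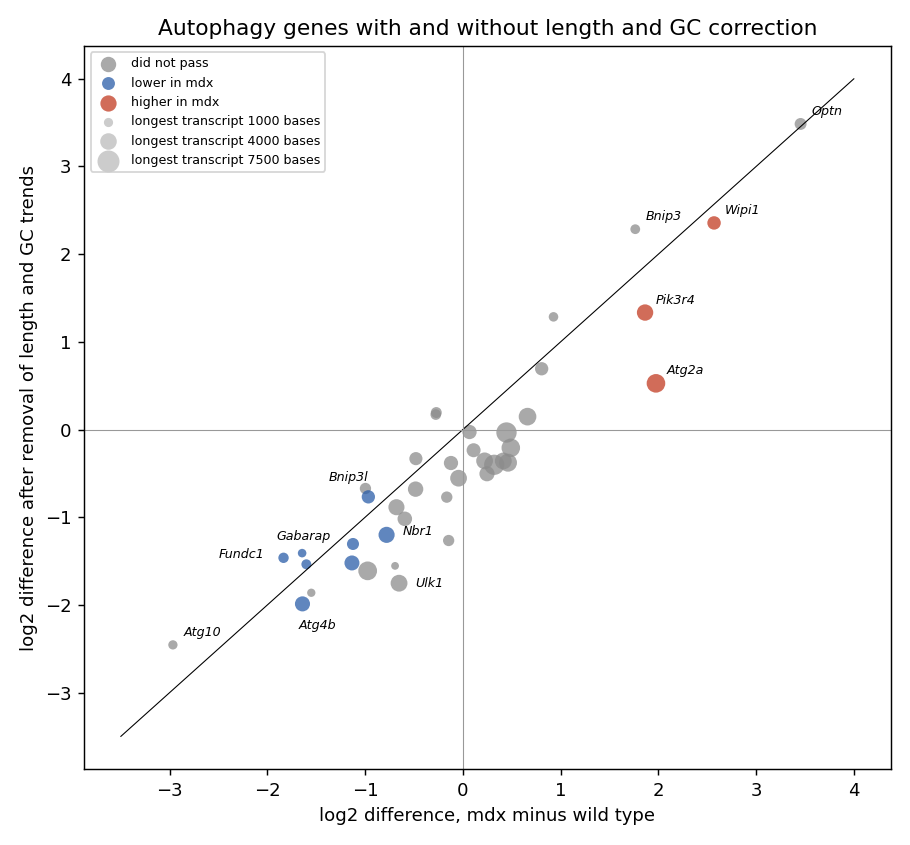
Log2 difference between genotypes for the 41 autophagy genes before (x axis) and after (y axis) the dependence on transcript length and GC content was taken out of each library, with point area proportional to transcript length and colour by call before correction. Wipi1 and Gabarap stay near the diagonal, Atg2a drops from 1.98 to 0.53, and long genes with small positive differences fall below 0.

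A wider list held 91 further genes of the pathway, 88 of them in the table, covering nutrient sensing, fusion with the lysosome and other receptors. All 88 were tested, and 14 rose, 11 fell and 63 did not pass, with a median log2 difference of 0.07. These are 15.9% higher and 12.5% lower, near the 14.6% and 10.3% of all tested genes. After length and GC correction 5 were higher and 18 lower, where all tested genes gave 9.73% and 11.0%. The counts of the smaller lists that follow are to be read against the same shares. Selective receptors outside the 41 gave 2 rises and 4 falls among 17. Wdfy3, a large scaffold for protein aggregates, rose 3.2-fold, from 1472 and 1793 to 5873, 5418 and 4427 (limma adjusted p = 0.000473), and Bag3, a co-chaperone that hands damaged filamin to autophagy in muscle, rose 2.58-fold, from 1735 and 1257 to 3860, 3431 and 4165 (0.00178). With length and GC corrected, the log2 difference of Wdfy3 went from 1.68 to 0.71 (limma adjusted p = 0.0255) and that of Bag3 from 1.36 to 1.02 (0.00815). Fundc2, the paralog of Fundc1, fell 3.23-fold, from 1829 and 2060 to 602, 602 and 594 (limma adjusted p = 0.000821). Both paralogs are X-linked and both were lower, with no overlap of libraries.

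Of 15 upstream kinase genes, 4 rose and 1 fell. Mtor, the kinase that restrains autophagy when nutrients are plentiful, rose 2.46-fold, from 675 and 838 to 2186, 1535 and 1899 (limma adjusted p = 0.00467), but corrected for length and GC its log2 difference was 0.30 and not called (limma adjusted p = 0.393). In the lysosomal nutrient-sensing set, 1 of 18 rose and 2 fell. Fnip2, a partner of folliculin in Tfeb control, rose 2.62-fold from 402 and 459 to 1214, 1097 and 1076 (limma adjusted p = 0.00368), and was not called after that correction (0.0761). Sesn1, a stress-induced inhibitor of mTORC1 signalling, fell 3.86-fold from 4355 and 2436 to 738, 721 and 1126 (limma adjusted p = 0.00225).

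Genes for fusion with the lysosome gave 3 rises and 2 falls among 16. Lamp2, an X-linked gene for a lysosomal membrane protein needed for autophagosome turnover, fell 2.4-fold, from 6159 and 6381 to 2692, 2600 and 2555. The replicates of each genotype lay within a narrow range and far apart from the other genotype (log2 difference −1.26, SE 0.16, limma adjusted p = 0.000731). Vps41, a subunit of the tethering complex of late endosomes, fell 2.19-fold, from 1739 and 2094 to 824, 953 and 837 (limma adjusted p = 0.00592). Autophagosome formation regulators outside the 41 gave 3 rises and 1 fall among 14, and the further transcription factors 1 rise and 1 fall among 8.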

How the data were processed

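Total RNA of sorted satellite cells was sequenced with a stranded low-input kit, from 10000 to 20000 cells per library per the labels' protocols. Per the submitters' processing notes the authors used STAR 2.6.1d, featureCounts 1.6.3, DESeq2 1.18.1 and mm10. The strand setting, duplicates and reads with several positions were not found in the sources used here. The deposited unit is treated as a score, the normalized count, because the authors' values have a median ratio near 1 to each gene's geometric mean in every library while the totals differ, so depth in reads is not known exactly and no count model was used.

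Values were taken as log2(normalized count + 2), and limma 3.58.1 (R 4.3.3) was run on genes reaching 10 in 2 or more libraries, with genotype as the term, moderation along the mean trend and robust fitting. Fold changes are on that scale and understate those of low genes. P-values are two-sided and adjusted over all 18199 tested genes. Transcript lengths came from GENCODE M21 (22649 of 22683 identifiers), and copies were searched with blastn 2.17.0 (identity of 95% over 20% of a transcript). The steps were tested on simulated data. All 41 genes are named, and of the wider list the 4 called genes with the smallest p in each direction. Members and lists were chosen with earlier results of these data known.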

Additional observations from a re-analysis of the deposited data

How the results depend on the processing

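Wipi1 and Gabarap kept their call under all 15 alternatives, and none of the 11 called autophagy genes changed direction. The alternatives include fits with a single wild-type library, which wild-type spread does not enter. Over the alternatives that left out 1 library, 3 to 6 autophagy genes were higher and 6 to 12 lower, 5 to 17 and 4 to 13 of the wider list, and 1450 to 3308 and 1112 to 1853 of all tested genes. Of the 18 autophagy genes called without wild type 1, 11 had been called with all libraries. With length and GC correction the wider list had 5 higher and 18 lower, and 1768 of all genes were higher. Without trend and robust fitting 2 autophagy genes were lower, the wider list had 6 higher and 4 lower, and 1150 of all genes were lower. With equal totals 6 of the wider list were lower, and the median of all genes was 0.31 in place of 0.13. Replicate numbers 1 and 2 occur in both genotypes. Deviations of same-numbered libraries from their group means had r = −0.014 and −0.017. With 2 wild-type libraries their deviations mirror each other, so r cannot decide whether the numbers mark a shared preparation. With the number as a replicate block, 4 autophagy genes were lower (Map1lc3b, Nbr1, Bnip3l and Fundc1 were not called), the wider list had 5 higher and 4 lower, and all genes 1163 and 860. The replicate block with length and GC correction gave 1 autophagy gene higher (Pik3r4, Atg2a, Bnip3l and Fundc1 were not called), 1 of the wider list higher, and 846 and 1090 of all genes. Replicate number 3 occurs in mdx alone, so a block on the number leaves mdx 3 without weight in the fitted genotype difference. The median over the autophagy genes was −0.286 both with the block and without mdx 3. Beyond this, the cause of these shifts was not tested.

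Of the 30 genes that did not pass, 16 changed sign somewhere, at adjusted p of 0.243 or more. With equal totals these were Atg14 (0.065), Uvrag (0.14), Pink1 (0.023) and Tfeb (0.040), and after quantile normalization Uvrag (0.011). With length and GC correction they were Atg13 (−0.24), Rb1cc1 (−0.034), Ambra1 (−0.36), Atg2b (−0.40), Atg9a (−0.50), Wipi2 (−0.36), Atg3 (0.17), Atg4a (0.19), Atg4d (−0.38), Atg16l1 (−0.029) and Tfe3 (−0.21). The replicate block turned Uvrag (0.024), and the block with that correction Atg13 (−0.28), Rb1cc1 (−0.097), Ambra1 (−0.36), Atg2b (−0.37), Atg9a (−0.45), Wipi2 (−0.56), Atg4a (0.38), Atg4d (−0.21), Atg16l1 (−0.098) and Tfe3 (−0.20). Leaving out 1 library at a time gave both signs for Atg13 (−0.011 to 0.23), Atg14 (−1.14 to 0.90), Uvrag (−0.26 to 0.17), Atg9a (−0.21 to 0.70), Bnip3 (−0.63 to 4.15), Pink1 (−0.49 to 0.16) and Tfeb (−0.52 to 0.23). With 2 wild-type libraries, the width of the intervals limits what could be detected, most of all for scarce genes such as Optn, Bnip3 and Atg10.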
